A study of Mus musculus with 12 samples.

Results

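Ribosome biogenesis factors are the proteins that make, modify, cut and fold ribosomal RNA and assemble it with ribosomal proteins into subunits. The 38 genes described here are a list of such factors, chosen by gene name with earlier results of these data known. Shares taken over the list are therefore not independent support. All 38 were found among the 22915 genes with values and passed the filter on low values. The filter was a normalized count of 10 or more in at least 3 libraries, which 13184 genes passed in all. The values come from RNA sequencing of primary cardiomyocytes of male C57/Bl6 mice that were 12 weeks old, kept in culture for 24 h under normoxia with PBS, with recombinant mouse leukemia inhibitory factor (mLIF), with mouse oncostatin M (mOSM) or with hlOSM. The protein hlOSM is mouse OSM that carries the AB loop of human OSM. The labels name no genetic change in these mice, the recombinant proteins were added at 25 ng per mL according to the labels (the study's methods give a slightly lower concentration), and each of the 4 conditions has 3 libraries. The methods speak of biological replicates in passing, but neither source says whether the libraries of a condition came from separate mice or cultures, so p-values measure only the spread between libraries, which may be technical. In the deposited values, the replicate number took far less of this spread than expected without any effect. P-values from a fit without that number may therefore be too small. Counts with the number as a block are also given. In mouse cells mLIF signals through LIFR and mOSM only through OSMR, whereas hlOSM engages both receptors, so that the conditions compare LIFR, OSMR and combined activation.

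RNA polymerase I transcribes the long ribosomal RNA precursor in the nucleolus. Small nucleolar RNPs (snoRNPs) guide its methylation and pseudouridylation, the small subunit processome cuts and folds the 18S part, and a separate series of factors, among them the PeBoW complex, matures the large subunit. Many of these genes are known targets of the transcription factor MYC, and ribosome production is known to rise when cardiomyocytes grow.

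Total normalized counts ranged from 2745748 to 2911891 per library. These are scaled values, not reads, so that the depth of sequencing behind a value is unknown from the table. The 8 cardiomyocyte markers were all detected, and their summed normalized count lay between 16184 and 17996 with PBS, against 1188 to 1262 for 8 endothelial markers and 2296 to 2526 for 8 fibroblast markers. None of the markers of the other cell types was at 0 in all libraries. For the genes described here, several libraries deviated from the others of their condition, replicate 3 of mOSM and replicate 3 of PBS among them. The mOSM library held the highest value of its condition in 22 of the 38 genes (43.3% of all genes tested did so). The PBS library held the lowest value of its condition in 24 of the 38 genes (24.2% of all genes tested did so), and it enters each fold change against PBS. Replicate 3 of mLIF held the highest value of its condition in 21 genes (41.8% of all genes tested) and replicate 1 of PBS in 19 (26.6%). Replicate 2 of mLIF held the lowest in 20 (33.6%). Counts are given without replicate 3 of mOSM and without replicate 3 of PBS, as are the calls that were lost.

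With mOSM 17 of the 38 genes were up-regulated and with hlOSM 20, with mLIF 3, and no gene was down-regulated with any of them (limma, Benjamini-Hochberg adjusted p under 0.05 over all genes tested). Of all genes tested, 15.4% were raised and 15.8% lowered with mOSM, 18.2% and 19.8% with hlOSM, and 5.47% and 4.44% with mLIF. The share among the ribosome biogenesis factors was 44.7% with mOSM, 52.6% with hlOSM and 7.89% with mLIF. The changes were small. The median log2 fold change of the 38 genes came to 0.21 (hlOSM), 0.18 (mOSM) and 0.06 (mLIF), while the median of all genes tested lay between -0.01 and 0.00 in each comparison. The largest change was 1.73-fold (Noc4l with hlOSM), and 24, 35 and 34 of the 38 genes had a positive fold change with mLIF, mOSM and hlOSM. The cytokines were compared with the same PBS libraries, so the counts are not independent of each other. Without replicate 3 of mOSM, 13 genes were up-regulated with mOSM (14.2% of all genes tested in that fit), with a median log2 fold change of 0.14, and 1 gene, Ncl, was down-regulated. Without replicate 3 of PBS, 13 were up-regulated with mOSM (13.2%) and 14 with hlOSM (16.1%), and without replicate 3 of hlOSM 14 with hlOSM (13.7%). The count with mLIF was 0 without replicate 3 of mLIF (2.08%), 1 without replicate 3 of PBS (3.26%) and 5 without replicate 3 of mOSM (6.31%).

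Seen without a test, all libraries of a cytokine lay above all PBS libraries in 12 of the 38 genes for mLIF (14.7% of all genes tested), 21 for mOSM (20.2%) and 23 for hlOSM (22.7%). They lay below all PBS libraries in 5 genes for mLIF (15.6%), in none for mOSM (19.9%) and in 1, Ncl, for hlOSM (24.3%).

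**Figure D1:**
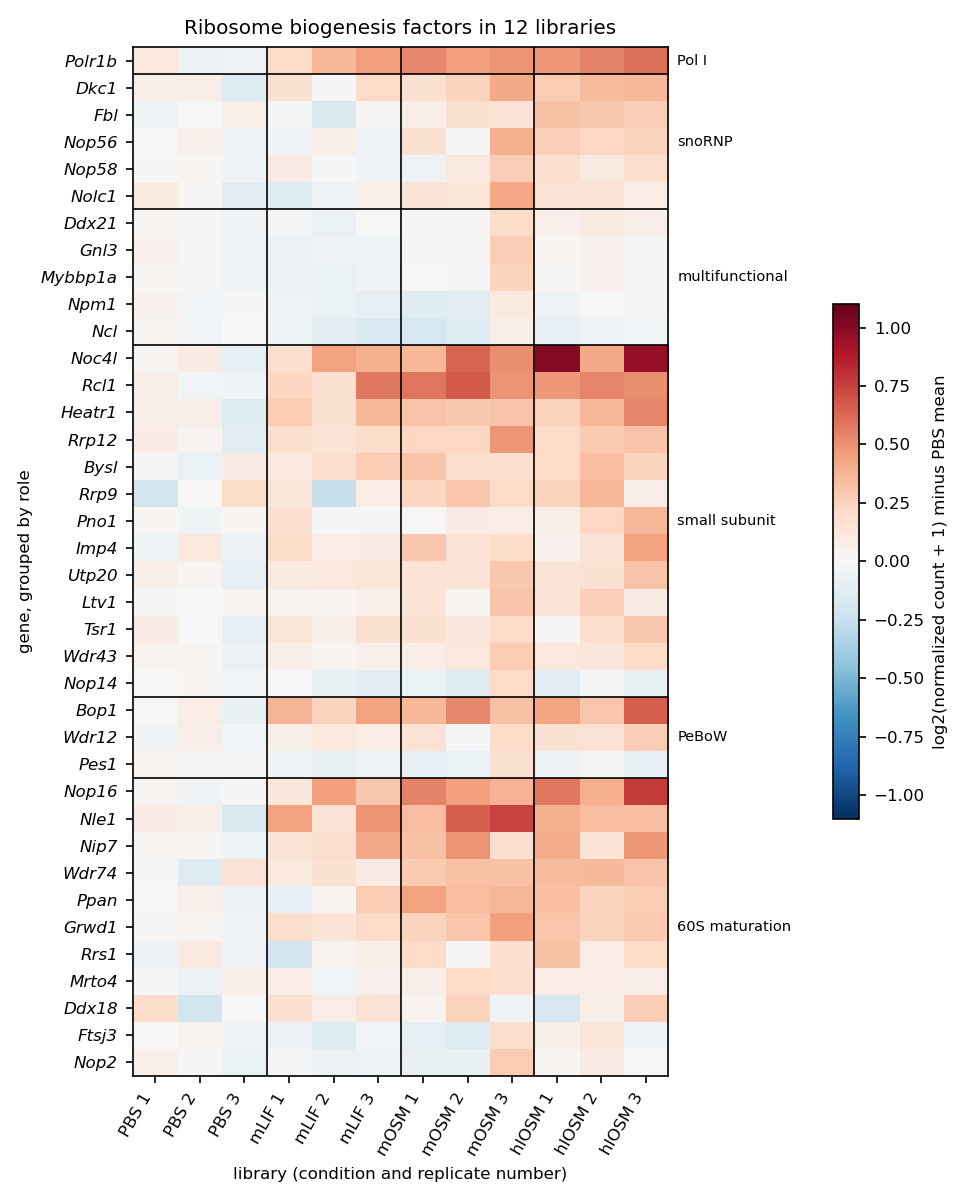
Expression of the 38 ribosome biogenesis factors in each of the 12 libraries, as log2(normalized count + 1) minus the mean of the 3 PBS libraries (color, log2 scale), with genes in rows grouped by role and ordered by the change with hlOSM. Polr1b and most of the subunit maturation factors are red with mOSM and hlOSM, whereas the multifunctional nucleolar proteins show weak colors of either sign.

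As a share of the library, the summed normalized counts of the 38 genes were 0.482% ± 0.0198 in PBS (SD, n = 3), 0.501% ± 0.00591 in mLIF, 0.536% ± 0.022 in mOSM and 0.540% ± 0.00563 in hlOSM. The lowest library of mOSM or hlOSM, at 0.522%, lay above the highest of mLIF, at 0.507%, and above the highest of PBS, at 0.494%. The highest of all was replicate 3 of mOSM with 0.561%. This sum leans on the abundant genes, Ncl above all, and the median over genes, in which each gene counts alike, gave the same order of the conditions, with 0.07 ± 0.03 for mLIF, 0.19 ± 0.06 for mOSM and 0.21 ± 0.05 for hlOSM on the log2 scale relative to PBS (SD, n = 3).

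**Figure D2:**
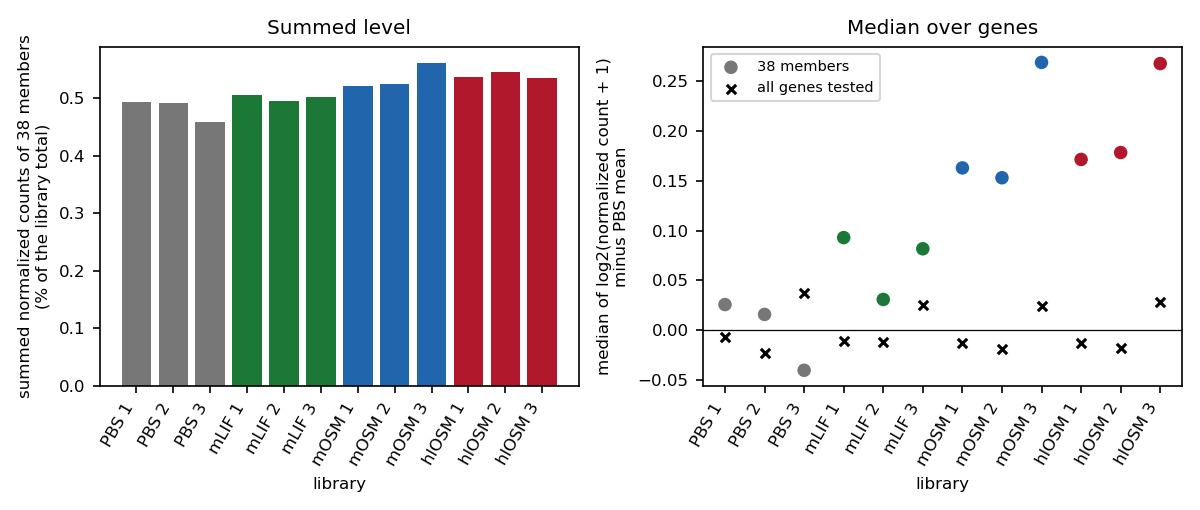
Left, summed normalized counts of the 38 genes as a percentage of each library's total. Right, the median over genes of log2(normalized count + 1) minus the PBS mean, for the 38 genes (colored points) and for all genes tested (crosses), with each library on the horizontal axis. The 38 genes lie lowest in PBS and highest in mOSM and hlOSM, while the median of all genes lies between -0.023 and 0.037.

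Markers of other cell types and of the cardiomyocytes moved in the same comparisons. Of 8 cardiomyocyte markers 7 were lowered with mOSM and with hlOSM and 5 with mLIF, and their summed count with hlOSM lay between 13116 and 13548. Of 8 endothelial markers 6 were raised with mOSM and with hlOSM and none with mLIF, and the sum reached 1471 to 1700 with mOSM and 1477 to 1590 with hlOSM. The 8 smooth muscle and pericyte markers fell from 1862 to 2218 with PBS to 1209 to 1299 with hlOSM, with 7 lowered. Fibroblast markers were split, with 3 raised and 5 lowered with hlOSM and a sum of 2307 to 2540. Of 5 macrophage markers that passed the filter 1 was raised with hlOSM, Cd68, and 1 lowered, Lyz2, and the sum over all 8 listed lay between 322 and 390 against 304 to 320 with PBS. Markers of cycling cells summed to 1080 to 1214 with PBS and to 770 to 901 with hlOSM, with 4 of 8 lowered and none raised. In bulk RNA, fewer cells of a type and less RNA of that type per cell cannot be told apart, and the part of these shifts in the changes of the ribosome biogenesis factors was not tested.

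Polr1b, the second largest subunit of RNA polymerase I (ENSMUSG00000027395, chr2:129100995-129126594 in mm10), was the only member of the polymerase among the 38 genes and was raised with all 3 cytokines. Its normalized counts were 205, 181 and 182 in PBS, 219, 244 and 261 in mLIF, 273, 260 and 266 in mOSM, and 263, 276 and 288 in hlOSM. Each cytokine library was above each PBS library, and the mOSM and hlOSM libraries overlapped with each other. Log2 fold changes against PBS were 0.35 ± 0.07 (SE) for mLIF, 0.49 ± 0.07 for mOSM and 0.54 ± 0.07 for hlOSM (adjusted p = 0.00504, 2.28e-05 and 5.09e-06). The adjusted p with mLIF was 0.0507 without replicate 3 of mLIF.

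Of the 5 snoRNP genes 2 were raised with mOSM, 3 with hlOSM and none with mLIF. The group medians of log2 fold changes were 0.00 (mLIF), 0.19 (mOSM) and 0.25 (hlOSM). Dkc1, the pseudouridine synthase of box H/ACA snoRNPs, had normalized counts of 257, 257 and 221 in PBS, 274, 242 and 285 in mLIF, 274, 291 and 327 in mOSM, and 297, 312 and 313 in hlOSM. Every mOSM and hlOSM library was above the PBS libraries, whereas mLIF and PBS overlapped. Dkc1 was raised by 0.28 ± 0.08 (SE, log2) with mOSM and by 0.33 ± 0.08 with hlOSM (adjusted p = 0.00996 and 0.00232). Without replicate 3 of mOSM, the value with mOSM was 0.21 and its adjusted p 0.0587, and without replicate 3 of PBS the adjusted p was 0.0728.

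Fbl, the methyltransferase of box C/D snoRNPs, was found at 83, 86 and 90 normalized counts in PBS, 85, 77 and 87 in mLIF, 91, 97 and 96 in mOSM, and 108, 106 and 104 in hlOSM. It was the single gene of the 38 whose hlOSM libraries all lay above the mOSM libraries (4.12% of all genes tested did so). Its log2 fold change with hlOSM was 0.29 ± 0.09 against PBS and 0.35 ± 0.09 against mLIF (adjusted p = 0.0147 and 0.00988), and 0.16, with a 95% interval from -0.03 to 0.35, against mOSM (adjusted p = 0.714). Without replicate 1 of PBS, the adjusted p against PBS was 0.0578.

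Nop56, a scaffold protein of the same particle, had values of 245, 256 and 237 in PBS, 239, 259 and 239 in mLIF, 277, 248 and 325 in mOSM, and 295, 288 and 293 in hlOSM. The hlOSM libraries were close to each other and above PBS and mLIF, and those with mOSM spread from within the PBS range to the highest of all. Its log2 fold change with hlOSM was 0.25 ± 0.08 (adjusted p = 0.0167, and 0.0595 without replicate 3 of PBS), and with mOSM it missed the threshold at 0.19 (adjusted p = 0.064). Nop58, its partner in the particle, had 569, 572 and 550 in PBS, 599, 554 and 549 in mLIF, 543, 606 and 679 in mOSM, and 637, 605 and 645 in hlOSM. All hlOSM values exceeded those with PBS, yet the difference of 0.16 missed the threshold (adjusted p = 0.066). Nolc1, a chaperone of both kinds of snoRNP, showed 282, 264 and 239 in PBS, 236, 251 and 271 in mLIF, 289, 287 and 351 in mOSM, and 292, 292 and 277 in hlOSM. It was raised with mOSM (0.24 ± 0.08, adjusted p = 0.0299) and not called with hlOSM (0.14, adjusted p = 0.198). The difference of hlOSM to mOSM did not pass the test (-0.10, adjusted p = 0.842). Without replicate 3 of mOSM, the log2 fold change of Nolc1 with mOSM against PBS was 0.14, with an adjusted p of 0.177. Nolc1 was also not called with mOSM without replicate 2 or replicate 3 of PBS (adjusted p = 0.056 and 0.155). Nop56 and Nop58 host snoRNA genes in their introns, and annotated snoRNA genes on the same strand cover 8.0% of the exonic bases of Nop56. The study's methods left out reads that overlap more than 1 gene, so reads in these bases may be missing from its count.

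None of the 5 multifunctional nucleolar proteins passed the threshold with any cytokine, and their log2 fold changes ranged from -0.11 to -0.03 for mLIF, from -0.09 to 0.10 for mOSM and from -0.06 to 0.08 for hlOSM. These abundant proteins act in ribosome assembly and in other processes such as chromatin and p53 regulation. Ncl (nucleolin) had normalized counts of 1870, 1798 and 1827 in PBS, 1768, 1692 and 1627 in mLIF, 1605, 1670 and 1917 in mOSM, and 1719, 1773 and 1796 in hlOSM. All mLIF and hlOSM libraries lay below all PBS libraries, by -0.11 ± 0.06 and -0.06 ± 0.06 on the log2 scale (adjusted p = 0.224 and 0.475). Replicates 1 and 2 of mOSM were among the 3 lowest libraries, and replicate 3 was the highest of all 12. Without that library Ncl fell by 0.16 with mOSM (adjusted p = 0.00993).

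Mybbp1a, a nucleolar repressor of transcription, had 952, 942 and 912 in PBS, 894, 887 and 911 in mLIF, 939, 922 and 1107 in mOSM, and 945, 968 and 922 in hlOSM. Gnl3 (nucleostemin), a GTP-binding protein of proliferating cells, had 604, 581 and 570 in PBS, 559, 564 and 561 in mLIF, 591, 589 and 705 in mOSM, and 593, 604 and 589 in hlOSM. Ddx21, an RNA helicase, had 928, 914 and 881 in PBS, 902, 861 and 907 in mLIF, 896, 915 and 1042 in mOSM, and 944, 970 and 955 in hlOSM. In all of these, replicate 3 of mOSM was the highest of the 12 libraries and the remaining libraries lay close together, although for Ddx21 the hlOSM libraries were all above PBS (log2 0.08, adjusted p = 0.304). Npm1 (nucleophosmin) ranged from 475 to 564 over all libraries, with its highest mean in PBS, as for Ncl. The 5 genes with every mLIF library below every PBS library were Gnl3, Mybbp1a, Ncl, Npm1 and Pes1, and none of these passed the test.

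**Figure D3:**
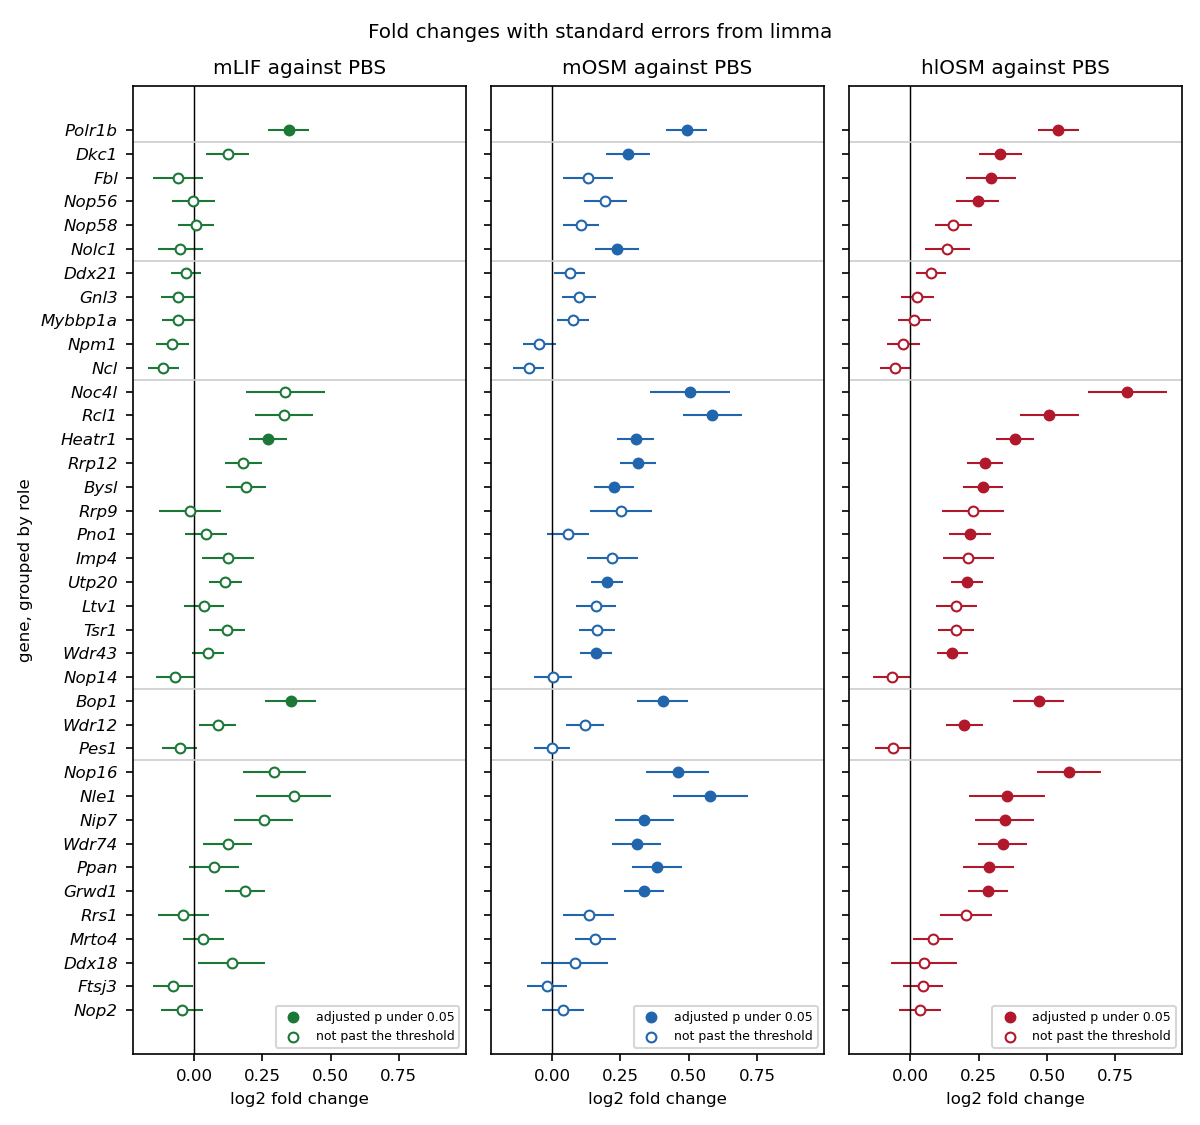
Log2 fold changes against PBS with standard errors (horizontal axis) for the 38 genes in rows, in 1 panel per cytokine, where filled points passed the adjusted threshold. Filled points number 3 with mLIF, 17 with mOSM and 20 with hlOSM, none lies left of 0, and the multifunctional nucleolar proteins hold none.

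Among the 13 genes of the small subunit processome and 40S maturation, 1 was raised by mLIF, 7 by mOSM and 8 by hlOSM, with group medians of 0.12, 0.22 and 0.22 on the log2 scale. Noc4l, which acts with Nop14 in the processome and in nuclear export of the small subunit (ENSMUSG00000033294, chr5:110648418-110653417), had normalized counts of 44, 46 and 40 in PBS, 49, 59 and 57 in mLIF, 56, 68 and 62 in mOSM, and 88, 58 and 85 in hlOSM. Every cytokine library was above the PBS libraries, and 1 hlOSM library lay in the mOSM range. Its log2 fold changes were 0.33 ± 0.15 for mLIF, 0.50 ± 0.15 for mOSM and 0.79 ± 0.15 for hlOSM (adjusted p = 0.148, 0.0103 and 0.00016), and without replicate 2 of mOSM the adjusted p for mOSM was 0.0525. Its partner Nop14 had 548, 556 and 537 in PBS, 547, 516 and 503 in mLIF, 520, 499 and 635 in mOSM, and 506, 543 and 517 in hlOSM. Nop14 differed from PBS by -0.07, 0.00 and -0.07 with mLIF, mOSM and hlOSM (adjusted p from 0.477 to 0.978).

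Heatr1, which is needed for transcription of ribosomal DNA as well as for processing of the 18S RNA (ENSMUSG00000050244, chr13:12395027-12440289), was raised with each cytokine. It had 713, 711 and 618 normalized counts in PBS, 824, 765 and 876 in mLIF, 842, 832 and 844 in mOSM, and 809, 873 and 984 in hlOSM. No cytokine library fell into the PBS range, and the cytokines overlapped with each other. The log2 fold changes were 0.27 ± 0.07, 0.31 ± 0.07 and 0.38 ± 0.07 with mLIF, mOSM and hlOSM (adjusted p = 0.0152, 0.00171 and 0.000145). Without replicate 3 of PBS or of mLIF, the adjusted p for mLIF was 0.105.

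Rcl1, the protein linked to cleavage of the precursor before the 18S part, had 73, 68 and 67 in PBS, 82, 78 and 104 in mLIF, 105, 111 and 98 in mOSM, and 97, 101 and 99 in hlOSM. Its libraries with mOSM and hlOSM did not reach down to the PBS range, and its rise with mOSM was the largest of the 38 genes with that cytokine (log2 0.59 ± 0.11, adjusted p = 0.000201). With mLIF its libraries were also all above PBS, and the difference of 0.33 missed the threshold (adjusted p = 0.0525). Rrp12, which takes part in export and maturation of pre-40S particles, had 685, 660 and 593 in PBS, 738, 714 and 742 in mLIF, 754, 756 and 904 in mOSM, and 747, 789 and 803 in hlOSM. All 9 cytokine libraries were above PBS, with log2 fold changes of 0.31 ± 0.07 with mOSM and 0.27 ± 0.07 with hlOSM (adjusted p = 0.001 and 0.00267). Rrp9, a protein of the U3 snoRNP, had 95, 109 and 126 in PBS, 120, 91 and 116 in mLIF, 129, 135 and 127 in mOSM, and 130, 141 and 115 in hlOSM. Its PBS libraries spread more widely than those of most members, and it was not called (adjusted p = 0.0961 with mOSM and 0.117 with hlOSM) unless replicate 3 of PBS was left out.

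Of the remaining genes of this group, Bysl, a factor of late nuclear pre-40S particles, rose by 0.23 with mOSM and 0.27 with hlOSM (adjusted p = 0.0204 and 0.00607), and 9.37% of its exonic bases are overlapped by Ccnd3 on the other strand. Bysl was not called with mOSM without replicate 1 or 2 of PBS or replicate 1 of mOSM (adjusted p from 0.0584 to 0.105). Utp20, a component of the processome, rose by 0.20 and 0.21 (adjusted p = 0.013 and 0.00882). It was not called without replicate 3 of PBS with either cytokine (adjusted p = 0.092 and 0.0655), with mOSM without replicate 3 of mOSM (0.15, adjusted p = 0.0539), or with hlOSM without replicate 3 of hlOSM (adjusted p = 0.0561). Wdr43, of the same assembly, rose by 0.16 and 0.15 (adjusted p = 0.0389 and 0.0404), and this call was lost in 5 of 12 fits that left out a library with mOSM and in 7 with hlOSM, each of the 3 PBS libraries among them. Its value with mOSM was 0.10 without replicate 3 of mOSM (adjusted p = 0.167). Pno1, a KH-domain protein of pre-40S particles, was raised with hlOSM (0.22, adjusted p = 0.0315), and its difference between hlOSM and mOSM was not called. Its call was lost without any 1 of the PBS libraries and without replicate 2 or 3 of hlOSM (adjusted p from 0.0508 to 0.178). Imp4, Ltv1 and Tsr1 had log2 fold changes between 0.16 and 0.22 with mOSM and hlOSM that missed the threshold, with adjusted p between 0.0518 and 0.105. Srr on the other strand overlaps 32.3% of the exonic bases of Tsr1. Reads in these bases may be missing from the count of Tsr1 if strand was not used in counting, which the sources used here do not say.

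**Figure D4:**
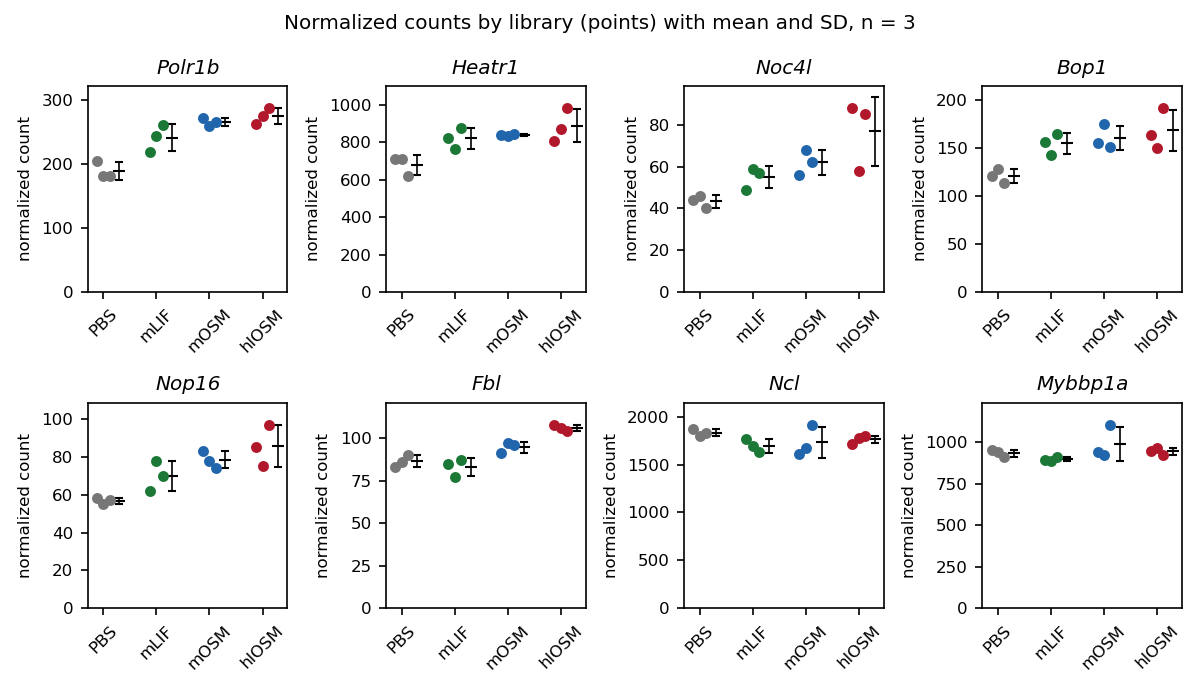
Normalized counts of 8 members in each library (points), with the mean and SD of the 3 libraries of a condition beside them, and axes that start at 0. Polr1b, Heatr1, Noc4l, Bop1 and Nop16 lie above PBS in every cytokine library, Fbl in every mOSM and hlOSM library, and the highest library of Ncl and of Mybbp1a is replicate 3 of mOSM.

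The 3 genes of the PeBoW complex, which is required for maturation of the 5.8S and 28S RNA, did not share their outcome in the test. Bop1 (ENSMUSG00000022557, chr15:76452989-76477277) had normalized counts of 121, 128 and 114 in PBS, 157, 143 and 165 in mLIF, 156, 175 and 151 in mOSM, and 164, 150 and 192 in hlOSM. All cytokine libraries exceeded the PBS libraries and overlapped with each other, with log2 fold changes of 0.35 ± 0.09, 0.40 ± 0.09 and 0.47 ± 0.09 with mLIF, mOSM and hlOSM (adjusted p = 0.0193, 0.00204 and 0.000407). Without replicate 3 of PBS, replicate 1 of mLIF or replicate 3 of mLIF, the adjusted p for mLIF was 0.0847, 0.0617 and 0.107. Pes1 had 398, 383 and 382 in PBS, 376, 367 and 378 in mLIF, 363, 369 and 435 in mOSM, and 371, 382 and 360 in hlOSM. Its log2 fold changes were -0.05, 0.00 and -0.06 (adjusted p from 0.475 to 0.998). Wdr12 was raised with hlOSM (0.20, adjusted p = 0.0268), though not without replicate 1 or 3 of PBS or replicate 3 of hlOSM (adjusted p from 0.0785 to 0.101), and had a log2 fold change of 0.12 with mOSM (adjusted p = 0.192).

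Among the 11 further genes of 60S maturation 6 were raised with mOSM, the same number with hlOSM and none with mLIF, with group medians of 0.31, 0.28 and 0.12 on the log2 scale. Nop16 (ENSMUSG00000025869, chr13:54584185-54590090), a nucleolar protein of early large subunit precursors, had 58, 55 and 57 normalized counts in PBS, 62, 78 and 70 in mLIF, 83, 78 and 74 in mOSM, and 85, 75 and 97 in hlOSM. The PBS libraries lay within 3 normalized counts of each other and below every cytokine library, and the log2 fold changes were 0.29 ± 0.12, 0.46 ± 0.12 and 0.58 ± 0.12 with mLIF, mOSM and hlOSM (adjusted p = 0.112, 0.00424 and 0.00043).

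Ppan, a factor of early pre-60S particles, had 109, 113 and 104 in PBS, 102, 111 and 132 in mLIF, 148, 138 and 140 in mOSM, and 137, 129 and 132 in hlOSM. Each mOSM library lay above each hlOSM library, as in no other member (5.62% of all genes tested), and the difference of hlOSM to mOSM was -0.10, with a 95% interval from -0.29 to 0.09. Ppan rose by 0.38 ± 0.09 with mOSM and 0.29 ± 0.09 with hlOSM (adjusted p = 0.00274 and 0.0178), and by 0.31 ± 0.09 between mLIF and mOSM (adjusted p = 0.0292). Its call with hlOSM was lost without replicate 3 of PBS or replicate 1 of hlOSM (adjusted p = 0.0623 and 0.061). Its call between mLIF and mOSM was lost with the replicate number as a block. A pair of snoRNA genes on its strand covers 4.12% of its exonic bases.

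Grwd1, the chaperone of a ribosomal protein of the large subunit, rose by 0.33 with mOSM and 0.28 with hlOSM, Wdr74 by 0.31 and 0.34, Nip7 by 0.34 and 0.34, and Nle1 by 0.58 and 0.35. Adjusted p for these 4 genes lay between 0.00123 and 0.0474, and the call of Nle1 with hlOSM was lost in 9 of 12 fits that left out a library. Nip7 was not called with mOSM without replicate 3 of PBS or replicate 2 of mOSM, nor with hlOSM without replicate 1 or 3 of hlOSM, and Wdr74 not with mOSM without replicate 2 of PBS. Nop2, a methyltransferase of 28S RNA, had 375, 365 and 344 in PBS, 358, 346 and 348 in mLIF, 342, 342 and 438 in mOSM, and 366, 384 and 360 in hlOSM. Ftsj3, a methyltransferase in precursor processing, had 537, 550 and 520 in PBS, 513, 486 and 526 in mLIF, 497, 484 and 613 in mOSM, and 560, 586 and 515 in hlOSM. Ddx18, an RNA helicase, had 101, 76 and 88 in PBS, 99, 93 and 98 in mLIF, 90, 105 and 85 in mOSM, and 77, 92 and 106 in hlOSM. These genes overlapped between PBS and each of mOSM and hlOSM and were not called, nor were Rrs1 and Mrto4, with 0.20 and 0.08 on the log2 scale with hlOSM (adjusted p = 0.0905 and 0.41).

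Few of the differences between the cytokines themselves passed the test. Against mLIF, 2 of the 38 genes were raised with mOSM, Nolc1 and Ppan (6.05% of all genes tested were), and 3 with hlOSM, Fbl, Nop56 and Noc4l (7.42%). With the replicate number as a block, Nolc1 and Fbl kept their calls (limma adjusted p = 0.0417 and 0.0413). Ppan lost its call with mOSM, and Nop56 and Noc4l theirs with hlOSM (adjusted p = 0.0612 and 0.0731 for the latter genes). The share of all genes against mLIF in that fit is not given here. Although few passed, 37 of 38 genes had a positive difference between mOSM and mLIF and 35 between hlOSM and mLIF, with medians of 0.12 and 0.11 on the log2 scale. The median of all genes tested was -0.007 in both comparisons. The genes were measured in the same libraries, so these signs are not separate observations. Without replicate 3 of mOSM, the median between mOSM and mLIF was 0.0645. Of all genes tested, 5.76% were lowered with mOSM and 9.22% with hlOSM against mLIF. All libraries lay above those of mLIF in 11 genes for mOSM (12.9% of all genes) and 19 for hlOSM (14.6%), and below in none (14.1% and 17.1%). Without replicate 1 or 2 of mLIF or replicate 3 of mOSM no gene was raised between mLIF and mOSM, without replicate 1 of mOSM 1 was, and without replicate 1 of mLIF or replicate 3 of hlOSM 1 was raised between mLIF and hlOSM. No gene differed between hlOSM and mOSM in either direction (limma, 0 of 38 also at an unadjusted p under 0.05, which 7.49% of all genes tested had), where 0% of all genes tested were raised and 0.106% lowered. The 95% interval of this difference lay within 0.5 of 0 on the log2 scale in 36 of the 38 genes and within 0.25 in 26, so that larger differences lay outside the interval for most but not all members. Noc4l had the widest reach upward, 0.29 with an interval from -0.01 to 0.59. Whether the step from mOSM to hlOSM differed from the step from PBS to mLIF was tested as an interaction, for which no gene passed (0.0152% of all genes were above and 0.152% below) and 6 (15.8%) had an unadjusted p under 0.05, against 11.5% of all genes tested.

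In 15 of the 38 genes the condition means followed the order PBS, mLIF, mOSM, hlOSM, as in 12.8% of all genes tested. The mean with PBS was the lowest of the 4 in 24 genes (34.7% of all genes tested). The highest mean was with hlOSM in 20 genes, with mOSM in 15, with PBS in 2 (Npm1 and Ncl) and with mLIF in 1 (Ddx18). These positions rest on means that mostly do not differ between neighbors in the order.

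Expressed per kilobase of exonic sequence in PBS, Nop14 (200 normalized counts per kb), Npm1 (196), Ncl (180), Ddx21 (175) and Mybbp1a (161) had the highest levels of the 38 genes, and Nle1 (12.5), Imp4 (15.6) and Noc4l (16.7) the lowest. None of the first 5 was called with any cytokine. Among the 19 genes with the highest level per kb 6 were raised with mOSM and 6 with hlOSM, and among the 19 lowest 11 and 14, with median log2 fold changes of 0.14 and 0.29 with hlOSM. This split was added after results had been seen and was not tested. The share of all genes raised at high and at low level is not given here. The counts therefore do not show that the response of these members depends on their level.

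Of other genes of ribosome production, 148 passed the filter of 159 listed. Counts of raised and lowered genes were 7 and 4 for mLIF, 31 and 5 for mOSM, and 36 and 7 for hlOSM. As a percentage, 4.73% were raised by mLIF, 20.9% by mOSM and 24.3% by hlOSM, lower than among the 38 genes and nearer to all genes tested. The 38 genes and the other lists were chosen with earlier results of these data known, so this gap is not independent support. The median log2 fold changes were 0.02, 0.08 and 0.09. Of 52 other small subunit genes 13 were raised and none lowered with hlOSM, of 15 other snoRNP genes 5 and none, of 51 other 60S genes 11 and 4, of 16 exosome and RNA end-processing genes 4 and 1, and of 14 other RNA polymerase I genes 3 and 2. These counts are from the fit without the replicate block. With the block, hlOSM had 26 raised and 6 lowered of the 148 genes. For mOSM 22 were raised and 4 lowered, for mLIF 4 and 2. The lists then held 11 (small subunit), 3 (snoRNP), 6 (60S), 3 (exosome) and 3 (RNA polymerase I) genes raised by hlOSM. Of the 38 genes, that fit had 16 raised by hlOSM. Genes named from these lists carry adjusted p without the block. The polymerase subunits did not move together. Polr1c rose by 0.64 ± 0.13 with hlOSM and Taf1c, a subunit of the promoter selectivity factor, by 0.52 ± 0.13 (adjusted p = 0.000347 and 0.00318), whereas Polr1e fell by 0.65 ± 0.08 and Ubtf, the upstream binding factor of ribosomal DNA, by 0.28 ± 0.07 (adjusted p = 1.51e-06 and 0.00452).

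Eif6, which keeps the large subunit from joining the small one too early, rose by 0.61 ± 0.07 with hlOSM, and Nifk, a binding partner of the Ki-67 protein, by 0.51 ± 0.09 (adjusted p = 1.03e-06 and 0.00011). Zfp622, which acts in late cytoplasmic steps of the large subunit, fell by 0.59 ± 0.08 and Rrp1 by 0.21 ± 0.06 (adjusted p = 2.83e-06 and 0.0116). Utp4 (0.53) and Riok3 (0.32) of the small subunit list, Nhp2 (0.53) and Naf1 (0.34) of the snoRNP list, and Exosc1 (0.48) and Exosc2 (0.35) of the exosome list rose with hlOSM, with adjusted p between 5.6e-05 and 0.00552. Xrn2, the exonuclease that trims precursor ends, fell by 0.19 (adjusted p = 0.0134).

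**Figure D5:**
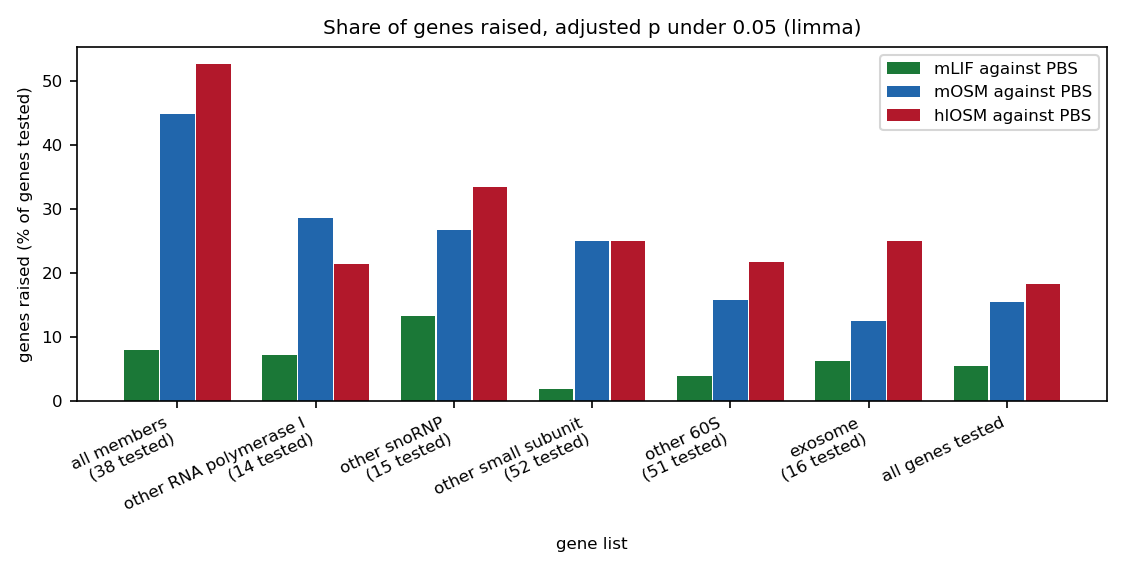
Percentage of genes raised against PBS (vertical axis, limma adjusted p under 0.05) for the 38 members, for 5 lists of other genes of ribosome production and for all genes tested, with a bar for each cytokine. The bars of the 38 members reach 44.7% with mOSM and 52.6% with hlOSM, against 15.4% and 18.2% of all genes.

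Myc, which encodes a transcription factor known to bind many genes of this pathway at CACGTG, was raised with all 3 cytokines. Its normalized counts were 262, 239 and 267 in PBS, 307, 316 and 357 in mLIF, 328, 406 and 290 in mOSM, and 357, 304 and 383 in hlOSM. All cytokine libraries were above the PBS libraries, and the cytokines overlapped. The log2 fold changes were 0.35 ± 0.10, 0.40 ± 0.10 and 0.44 ± 0.10 with mLIF, mOSM and hlOSM (adjusted p = 0.0272, 0.00336 and 0.00134). Of 8 tested genes of the MYC network, Myc included, 1 was raised with mLIF and none lowered, 2 were raised and 2 lowered with mOSM, and 2 raised and 3 lowered with hlOSM. The other raised gene was Mxd1, which competes with MYC for their shared partner MAX, with 0.64 ± 0.13 with hlOSM (adjusted p = 0.000667). The lowered genes with hlOSM were Mycn (-0.86 ± 0.32, adjusted p = 0.0405), a relative of Myc, and Mxd4 and Mga (-0.41 and -0.17, adjusted p = 7.11e-05 and 0.0107). With the replicate number as a block, Mycn was not called with hlOSM or mOSM (adjusted p = 0.0754 and 0.079).

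The hexamer CACGTG, which reads the same on both strands, was searched in windows of 300 bases around gene starts (250 before to 50 after) from RefSeq on GRCm38.p6. A window was found for 33 of the 38 genes and 11 of these (33.3%) held the hexamer, against 20 of 124 (16.1%) of the other genes of ribosome production, 12.0% of genes tested with a window and 7.15% of all windows. In 2 genes, Imp4 and Nop2, it lay before the RefSeq start, in the others within the 50 bases after it. For some members, Wdr43 and Grwd1 among them, the GENCODE limits of the gene begin upstream of the RefSeq start. With hlOSM 5 of the 11 genes with the hexamer were raised and 12 of the 22 with a window but without it, with medians of 0.17 and 0.24 on the log2 scale. The following 8 matches read 5′ to 3′ on the strand of the gene, with the hexamer in capitals, as examples from members that were raised with hlOSM (Nle1, Pno1, Utp20, Wdr43, Grwd1) and members that were not (Imp4, Nop2, Mybbp1a). Of all 6 members with the hexamer that were not raised, 4 (Ltv1, Pes1, Tsr1 and Mybbp1a) held it after the start, as did all 5 that were. A match is a stretch of letters and not a measured binding site.
Nle1 (minus strand, chr11:82908355-82908384, in the 5′ UTR): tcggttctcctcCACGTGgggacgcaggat
Grwd1 (minus strand, chr7:45830740-45830767, in the coding sequence): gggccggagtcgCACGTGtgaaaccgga
Pno1 (minus strand, chr11:17211540-17211564, in the 5′ UTR): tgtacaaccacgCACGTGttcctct
Utp20 (minus strand, chr10:88826765-88826789, in the 5′ UTR): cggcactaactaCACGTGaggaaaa
Wdr43 (plus strand, chr17:71616220-71616249, in the 5′ UTR): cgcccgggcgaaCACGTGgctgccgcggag
Mybbp1a (plus strand, chr11:72441355-72441376, in the 5′ UTR): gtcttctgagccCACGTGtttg
Imp4 (plus strand, chr1:34439696-34439725, before the start): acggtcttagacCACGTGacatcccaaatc
Nop2 (plus strand, chr6:125131811-125131840, before the start): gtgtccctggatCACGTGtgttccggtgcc

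Some of the 38 genes carry snoRNA genes within their own limits. Annotated snoRNA genes lay inside 8 of the 38 (21.1%), 23 in all, against 2.06% of all genes tested. They were Nop56 with 5, Nop58 with 4, Ncl, Gnl3 and Wdr43 with 3 each, Tsr1 and Ppan with 2 each and Dkc1 with 1. Of these 8 host genes 4 were raised with hlOSM (Dkc1, Nop56, Ppan and Wdr43), and of the other 30 genes 16, with medians of 0.16 and 0.21 on the log2 scale.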

How the data were processed

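The values deposited by the authors are scores: normalized counts per gene, rounded to whole numbers, for 12 libraries. Per the labels and the study's methods, RNA was sequenced from libraries of a stranded total RNA kit. The authors trimmed reads, aligned them to mm10 with STAR 2.7.7a and counted those in exons of a single gene with featureCounts 1.6.5. The normalization and whether strand was used are not given in the sources used here, so no count model was run and depth sets no interval.

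Conditions and replicate numbers come from sample titles. Here, limma 3.58.1 in R 4.3.3 (lmFit, eBayes with trend) was run on log2(normalized count + 1) with all 12 libraries and 4 conditions in a single fit, for 13184 genes with 10 or more in at least 3 libraries, two-sided, with Benjamini-Hochberg adjusted p under 0.05 over all genes tested. Standard errors and 95% intervals are from this fit, and fold changes are on the log2(value + 1) scale. The script was tested on simulated data.

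The members, their roles and the gene lists were chosen with earlier results of these data known, and the direction of the members is not independent support. Members are described by counts and medians beside those of all genes tested, with no test over the list. Values in every library are given for the members with the largest and smallest change with hlOSM in each role group and for the smallest and largest adjusted p in each comparison. Of other pathway genes, those with the 2 smallest adjusted p in each direction with hlOSM in each list are named. The rule for printed sequences took only matches before the start, and those after it were added once their positions had been seen, as were Imp4 and the split by level per kb. Exonic length, overlaps and snoRNA genes are from GENCODE M21, in which all 38 genes had the same coordinates as in the table.

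Alternatives were other pseudocounts, filters, scalings and thresholds, a robust fit, only the libraries compared, each library left out, and the replicate number as a block. Correlations of deviations between libraries of the same number ranged from -0.518 to 0.022 over 18 pairs. After centring each library, the replicate number took 0.0168% of the variance within conditions, where 25% is expected without any effect. Such a share can remain where an effect of the number was taken out before deposit, which the sources used here do not say. These values therefore cannot show whether the numbers pair the libraries.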

Additional observations from a re-analysis of the deposited data

How the results depend on the processing

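No member changed direction past the threshold under any alternative run. Over pseudocounts, filters, the trimmed mean of M-values, quantile normalization, the robust fit and a fit of only the libraries compared, 16 to 18 genes were raised with mOSM and 18 to 22 with hlOSM. The share of all genes raised moved as well. It ran from 8.9% without a filter to 18.1% with a filter of 50 or more with mOSM. With hlOSM it ran from 10.7% to 21.1%. For the fit of only the libraries compared this share is not given here. A threshold of adjusted p under 0.01 left 1, 10 and 12 genes raised with mLIF, mOSM and hlOSM, and 0 between mLIF and mOSM and 1 between mLIF and hlOSM. A fold of at least 1.5 left 0, 1, 1, 0 and 0 in the same order. The shares of all genes at these stricter thresholds are not given here, so these counts have no background to be read against. With the replicate block 3, 15 and 16 genes were raised with mLIF, mOSM and hlOSM (3.39%, 12.5% and 14.7% of all genes). Against mLIF, 1 was raised with mOSM, Nolc1, and 1 with hlOSM, Fbl. Against PBS, Nolc1 and Wdr43 were no longer called with mOSM, and Wdr43, Pno1, Wdr12 and Nle1 with hlOSM. Deviations of same-numbered libraries correlated by -0.518 to 0.022 across genes, and the replicate number took 5.86% of the variance within conditions, where 25% is expected without any effect. Replicate 3 of each condition shared a small shift, with a median over all genes 0.0252 to 0.037 (log2) above its condition mean, and after centring each library the share was 0.0168%. Where so little of this variance is left, a fit without the block can understate the spread. The p-values of the main fit may therefore be too small.

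Leaving out each library in turn gave 0 to 5 genes raised with mLIF (0 without mLIF replicate 3, 1 without PBS replicate 3, 5 without mOSM replicate 3), 13 to 19 with mOSM, 14 to 23 with hlOSM, 0 to 3 for mOSM against mLIF (0 without mLIF replicate 1, mLIF replicate 2 or mOSM replicate 3, 1 without mOSM replicate 1) and 1 to 3 for hlOSM against mLIF (1 without mLIF replicate 1 or hlOSM replicate 3). With mOSM 0 to 1 genes were lowered. Of all genes tested in these fits, 2.08% to 6.43% were raised with mLIF, 13% to 16% with mOSM and 13.7% to 19.1% with hlOSM. Shares for the comparisons against mLIF are not given here. The median log2 fold change between mOSM and mLIF ranged from 0.0645 without mOSM replicate 3 to 0.1353. Of the calls, 9 of 17 with mOSM, 11 of 20 with hlOSM and 0 of 3 with mLIF held in all 12 of these fits. The cause of these shifts was not tested. With 3 libraries a condition and unknown depth, a change of a low gene such as Nle1 or Noc4l rests on few normalized counts.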
